A study of Mus musculus with 33 samples.

Results

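The IgLON genes Opcml, Ntm, Lsamp and Negr1 were followed in enteric neural crest cells (ENCCs) of the embryonic mouse gut, cultured with or without GDNF, and in whole gut. They were taken as the probe sets for which the platform annotation gives exactly 1 gene symbol and that symbol is 1 of these 4. This gave 8 probe sets of 34945 named ones: 2 for Opcml, 3 for Ntm, 2 for Lsamp and 1 for Negr1, and so 4 genes of 18193. Opcml was chosen by its score difference between GDNF-treated and untreated ENCCs in these same arrays, so that difference is given as a description with no test. The question put to the data was whether the Opcml difference was shared by the other family genes.

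IgLON proteins are immunoglobulin-domain cell adhesion molecules held on the outer face of the membrane by a glycosylphosphatidylinositol anchor. They are best known from neurons of the central nervous system, where they bind one another in like and unlike pairs and affect neurite outgrowth and synapse formation. GDNF is a secreted growth factor that signals through the receptor RET and promotes the survival, proliferation, migration and differentiation of the precursors of the enteric nervous system.

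GDNF-treated ENCCs comprised 9 RNAs read on 13 arrays, untreated ENCCs 9 RNAs on 12 arrays, and whole gut 8 RNAs on 8 arrays. The ENCCs came from C57BL/6 embryos at embryonic day 14.5 that carried Wnt1-Cre and R26-YFP, in which Cre acts in the neural crest lineage and marks its cells with YFP. YFP-positive cells were sorted by flow cytometry and plated on fibronectin in serum-free medium that held FGF and EGF in both wells. Each gut was divided over a pair of wells, and 50 ng/ml GDNF went into 1 of them. The sources used here do not give the duration of culture. Whole gut was dissected from wild-type C57BL/6 embryos of the same day, from duodenum to anus, and was not sorted or cultured, so that lineage selection and culture cannot be told apart between ENCCs and whole gut. Litters are not recorded, nor is the number of embryos behind a whole gut RNA, so the p-values measure the spread between these samples.

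The deposited values are scores and not brightness. Within each array the probe sets are ranked and given normal quantiles, from -4.084 to 4.084 with a median of 0. Before that, each probe set appears to have been centred and scaled within its batch on the 7 ENCC RNAs read in both batches. If so, a score difference of 1 is roughly 1 SD of that probe set's own spread among those 7 RNAs. No fold change can be given and levels of different genes cannot be set against each other. Large GDNF differences would be held down by such scaling. A batch is the number in the sample titles: batch 1 had 17 arrays, all ENCCs, and batch 2 had 16, with every whole gut. Of the 18 ENCC RNAs, 7 were read in both batches. In batch 2, all 9 gut epithelium markers and all 6 endothelium markers were lower in ENCCs than in whole gut, so the tissue labelled whole gut carried these cell types although 1 of its labels calls it ENCCs. Of 8 measured progenitor and glia markers, 7 were higher in ENCCs, among them Foxd3, a neural crest transcription factor, by 3.15. Of all genes, 25.9% were called higher there and 28.2% lower.

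The promoters are shown because Opcml, Lsamp and Negr1 set GDNF-treated wells apart from untreated ones and Ntm, the neighbour of Opcml, did not. The windows run from 250 bases before to 50 bases after a RefSeq start (GRCm38.p6), and 1 window per gene, the first in the table, is printed 5′ to 3′ on the gene's strand. CpG dinucleotides are in capitals.
Opcml, chr9:27791049-27791348, plus strand: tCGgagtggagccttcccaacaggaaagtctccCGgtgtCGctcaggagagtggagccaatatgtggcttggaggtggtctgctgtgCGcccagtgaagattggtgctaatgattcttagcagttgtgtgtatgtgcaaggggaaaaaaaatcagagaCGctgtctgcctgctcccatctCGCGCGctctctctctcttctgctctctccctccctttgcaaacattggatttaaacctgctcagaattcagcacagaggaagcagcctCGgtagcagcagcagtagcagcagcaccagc
Lsamp, chr16:39984114-39984413, plus strand: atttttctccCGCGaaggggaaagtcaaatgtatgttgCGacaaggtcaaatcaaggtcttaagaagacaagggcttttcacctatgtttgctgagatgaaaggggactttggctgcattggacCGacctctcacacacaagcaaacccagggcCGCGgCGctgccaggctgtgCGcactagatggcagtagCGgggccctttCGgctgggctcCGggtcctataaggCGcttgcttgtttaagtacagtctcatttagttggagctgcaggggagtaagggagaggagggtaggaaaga
Negr1, chr3:156561544-156561843, plus strand: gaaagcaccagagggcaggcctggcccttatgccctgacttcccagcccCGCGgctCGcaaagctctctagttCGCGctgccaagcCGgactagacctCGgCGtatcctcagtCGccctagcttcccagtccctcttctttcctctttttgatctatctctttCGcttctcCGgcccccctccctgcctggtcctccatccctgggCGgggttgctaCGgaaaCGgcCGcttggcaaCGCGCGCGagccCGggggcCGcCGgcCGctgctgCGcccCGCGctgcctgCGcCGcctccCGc
Ntm, chr9:29413403-29413702, minus strand: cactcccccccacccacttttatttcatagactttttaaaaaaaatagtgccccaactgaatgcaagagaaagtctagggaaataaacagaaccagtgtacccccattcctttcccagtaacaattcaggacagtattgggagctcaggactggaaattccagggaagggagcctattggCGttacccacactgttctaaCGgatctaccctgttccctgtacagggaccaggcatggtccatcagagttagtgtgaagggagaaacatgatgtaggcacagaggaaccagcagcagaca

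Opcml and Ntm are neighbouring protein-coding genes on chromosome 9 in the RefSeq table, while Lsamp is on chromosome 16 and Negr1 on chromosome 3. The Negr1 window had 68.0% GC and 29 CpG, and 11.7% of the 32851 windows of all genes had more CpG. The Opcml window had 53.7% GC and 9 CpG, against medians of 52.7% and 7 over all windows. Lsamp has a second start, chr16:41532576-41532875, with 3 CpG, against 12 in the window printed. Ntm has a second start, chr9:29412636-29412935, with 19 CpG, against 2 in the window printed. The windows thus had no common CpG content, either among Opcml, Lsamp and Negr1 or between the 2 starts of a gene. The letters of an E-box (CAGCTG), an ETS site (CCGGAAG) and a TATA box (TATAAA), searched on both strands, occurred in none of the 6 member windows, and in 16.3%, 8.86% and 13.6% of all windows. The letters TGACG, part of a cyclic AMP response element, which can overlap a CpG, occurred in 20.8% of all windows and once among the members, in the second Lsamp window. Which start the probe sets read was not tested.

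Opcml, also called OBCAM, encodes the opioid-binding cell adhesion molecule. Its score over the 9 guts had a lowest value of 0.25, a median of 1.02 and a highest value of 1.79 in GDNF-treated wells, against -1.99, -1.15 and -0.50 in untreated wells. Every treated well thus lay above every untreated well. Within guts, GDNF minus untreated averaged 2.25 ± 0.64 (SD, n = 9 guts), from 1.40 in gut 9 to 3.17 in gut 1, and was above 0 in 9 of 9 guts. Of 18193 genes, 1 had a higher mean difference. Both probe sets showed it, 1435612_at with 2.48 ± 0.67 and 1457446_at with 2.02 ± 0.77 (SD, n = 9). These values are those for which the gene was chosen.

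Lsamp encodes the limbic system-associated membrane protein, an IgLON known for guiding limbic connections. Its lowest, median and highest scores were 0.47, 0.69 and 1.08 in GDNF-treated wells, against -1.69, -1.13 and -0.58 in untreated wells, and the groups did not overlap. Lsamp rose with GDNF by 1.83 ± 0.33 (SD, n = 9 guts), from 1.28 to 2.31, with a 95% interval of 1.41 to 2.25 and a limma adjusted p of 6.5e-05. The difference was above 0 in 9 of 9 guts, as it was in 11.7% of all genes. Its probe sets 1435895_at and 1455636_at gave 1.87 ± 0.50 and 1.79 ± 0.38, each with a limma adjusted p of 0.000251 over all probe sets, of which 16.9% were called higher.

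Negr1 encodes neuronal growth regulator 1, also called kilon, and is read here by a single probe set, 1456392_at. Its lowest, median and highest scores were 0.40, 0.90 and 1.06 in GDNF-treated wells, against -1.48, -1.0 and -0.71 in untreated wells. The wells of the treatments were again fully apart. Negr1 rose with GDNF by 1.83 ± 0.28 (SD, n = 9 guts), from 1.40 to 2.26 and above 0 in 9 of 9 guts, with a 95% interval of 1.43 to 2.24 and a limma adjusted p of 6.5e-05. Having 1 probe set, it has no second reading of the gene on these arrays.

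Ntm, which encodes neurotrimin, behaved unlike the other 3. Its lowest, median and highest scores were -0.73, 0.17 and 1.36 in GDNF-treated wells, against -1.64, 0.38 and 1.32 in untreated wells, and the groups overlapped over most of their range. GDNF minus untreated averaged 0.15 ± 0.93 (SD, n = 9 guts), with a 95% interval of -0.48 to 0.78 and a limma adjusted p of 0.739. The difference was above 0 in 6 of 9 guts, with -1.29 in gut 4 at the low end and 1.24 in gut 3 at the high end. The probe sets 1426282_at, 1426283_at and 1458492_x_at gave 0.07 ± 0.96, -0.06 ± 0.95 and 0.45 ± 0.94, and none passed the test (limma adjusted p of 0.904, 0.921 and 0.326). The ending _x_at marks a set whose probes can also match other transcripts. Because each probe set appears to be scaled on its spread among 7 ENCC RNAs, a gene with a small GDNF difference shows its other variation at full size. The interval bounds the difference in these units, and does not show that Ntm was unaffected.

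Of the 3 other members, named as the family of Opcml, 2 rose and 0 fell, where 18.3% of all genes were called higher and 13.2% lower. The members were named with earlier results of these data known. Iglon5, the family gene given further below, was not called in either direction. Treated wells lay wholly above untreated wells in 4.69% of all genes, and in Opcml, Lsamp and Negr1. The median difference over all genes was 0.01, and the median size among called genes was 1.12.

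**Figure D1:**
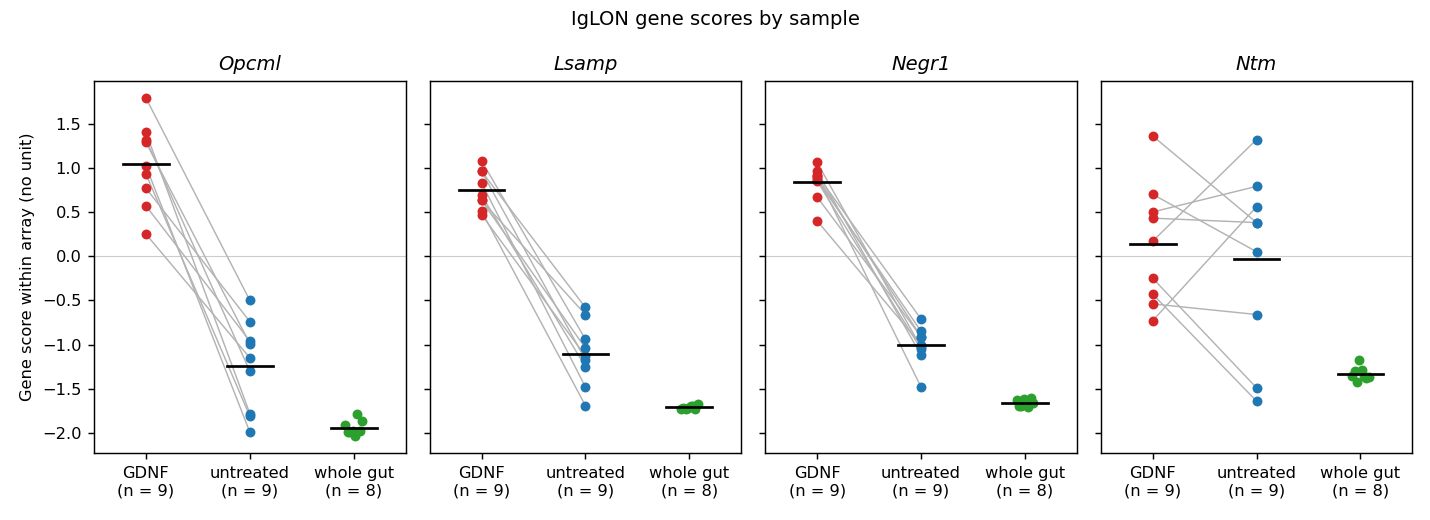
Gene score within an array (no unit) of Opcml, Lsamp, Negr1 and Ntm in GDNF-treated ENCCs (9 RNAs), untreated ENCCs (9 RNAs) and whole gut (8 RNAs); each point is 1 RNA, grey lines join the wells of 1 gut, and black bars are group means. Treated and untreated wells are apart for Opcml, Lsamp and Negr1 and overlap for Ntm, and whole gut lies at the low end, between -2.04 and -1.18 over the 4 genes.

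The family genes were then set against each other within guts. The Lsamp difference exceeded the Ntm difference in 9 of 9 guts, by 1.68 ± 1.09 (SD, n = 9). The Negr1 difference exceeded that of Ntm in 9 of 9 guts, by 1.68 ± 1.07 (SD, n = 9). Each gave p = 0.00391 in an exact two-sided sign-change permutation test, the smallest value that 9 guts allow, and 0.00586 after Benjamini-Hochberg adjustment over the 3 pairs tested. Ntm therefore differed from Lsamp and from Negr1 in its response, beyond the spread between guts. The Negr1 and Lsamp differences were apart by 0.00 ± 0.29 on average, from -0.40 to 0.35 (SD, n = 9, exact permutation adjusted p = 0.992). As a description, the Opcml difference was above that of Ntm in 9 of 9 guts, above that of Lsamp in 5 and above that of Negr1 in 7. These compare scores, each apparently scaled on its own probe sets, and not folds. Over probe sets, the difference was above 0 in 9 of 9 guts in 11.1% of all probe sets and in the 5 of Opcml, Lsamp and Negr1.

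**Figure D2:**
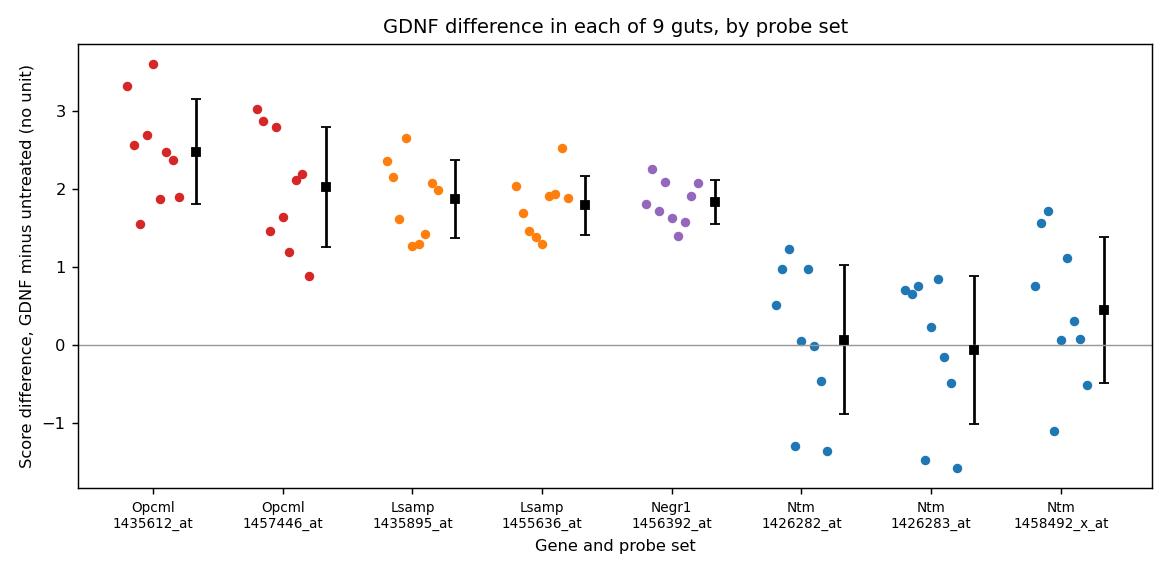
Score difference, GDNF minus untreated (no unit), for each of the 8 probe sets; coloured points are the 9 guts, black squares the mean and bars the SD. All 9 guts lie above 0 for the 5 probe sets of Opcml, Lsamp and Negr1, whereas the guts spread on both sides of 0 for the 3 probe sets of Ntm.

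The spread of Ntm between wells was seen again when the same RNA was read on a second array. For 1426282_at, the untreated well of gut 9 scored 1.40 in batch 1 and 1.41 in batch 2. The untreated well of gut 3 scored -1.74 and -1.30, and its batch 2 array was held in doubt. Over the 7 RNAs in both batches, the mean absolute gap between batches was 0.21 for this probe set, against a median of 0.92 over all named probe sets. The other Ntm probe sets had 0.35 and 0.63, and the widest gap of the 8 member probe sets was 0.64, for 1435612_at of Opcml. The 3 Ntm probe sets also followed each other over the 18 ENCC RNAs, with median absolute gaps of 0.21 to 0.30. The differences of Ntm between wells were thus repeatable between arrays, for the 7 RNAs read again, and between probe sets, while no GDNF difference was called. The wells of 1 gut could also lie far apart, as in gut 9 with 0.17 treated and 1.32 untreated.

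**Figure D3:**
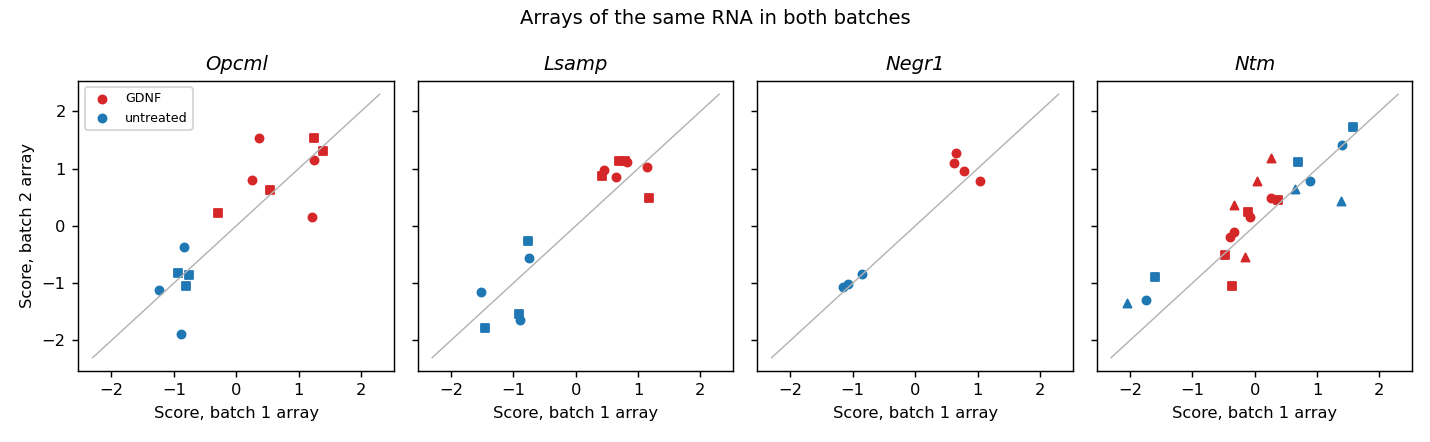
Score of the same RNA in batch 1 (x axis) and batch 2 (y axis), no unit, for the 7 ENCC RNAs read in both; red is GDNF-treated and blue untreated, symbols mark the probe sets of a gene, and the grey line is equality. The mean absolute gap from the line is 0.20 to 0.64 per probe set, and single points lie further off. For 1435612_at of Opcml, the treated well of gut 3 has 0.36 in batch 1 and 1.53 in batch 2. Treated and untreated wells form separate clouds except for Ntm.

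Within batches the pattern was the same in direction for Opcml, Lsamp and Negr1. The batches are not independent: batch 2 holds guts 2, 3, 8 and 9, and for guts 3, 8 and 9 it reads the RNAs of batch 1 again. The Opcml difference was 2.09 ± 0.80 in batch 1 (SD, n = 8 guts) and 2.17 ± 0.45 in batch 2 (SD, n = 4 guts). For Lsamp it was 1.73 ± 0.36 in batch 1 and 2.11 ± 0.47 in batch 2, and for Negr1 1.71 ± 0.20 and 2.13 ± 0.24. For Ntm it was 0.00 ± 1.03 in batch 1 and 0.30 ± 0.93 in batch 2. In batch 2 alone no gene of the whole array passed the limma test, with 3516 genes at an unadjusted p under 0.05, so that Lsamp and Negr1 had an adjusted p of 0.111 there.

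Iglon5, the remaining gene of the family, was read by 1456463_at and 1458997_at and is given beside the 4 members. GDNF minus untreated averaged -0.37 ± 0.74 (SD, n = 9 guts), with 2 of 9 guts above 0 and a limma adjusted p of 0.307. Its probe sets were poorly repeated between batches: the mean absolute gaps were 1.42 and 0.98, and the sign matched in 2 and 5 of 7 RNAs. A GDNF difference in Iglon5 was not detectable with these readings.

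In whole gut the IgLON genes stood near the bottom of the array. The percentile of 1435612_at of Opcml among all probe sets of an array had a median of 83.1 in GDNF-treated wells of batch 2 (55.8 to 93.7), 8.1 in untreated wells (0.792 to 35.7) and 1.66 in whole gut (1.32 to 3.53). For 1456392_at of Negr1 the medians were 84.7, 14.7 and 4.77. For 1426282_at of Ntm they were 51.1, 46.0 and 12.6. With scores built in this way, a low percentile means far below the ENCCs, apparently in units of that probe set's spread, and not a dim probe set.

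ENCCs were compared with whole gut in batch 2, taking the mean of both wells of a gut. This mean holds the treated well, and with it part of the GDNF difference for which Opcml was chosen, so the Opcml value is given with no test. Opcml scored -0.17 ± 0.45 in ENCCs (SD, n = 4 guts) and -1.94 ± 0.08 in whole gut (SD, n = 8), a difference of 1.77. Lsamp scored -0.11 ± 0.31 in ENCCs and -1.71 ± 0.02 in whole gut. It was higher by 1.60 (95% interval 1.31 to 1.90, limma adjusted p of 2.8e-07). Negr1 scored -0.04 ± 0.21 in ENCCs and -1.66 ± 0.04 in whole gut, and was higher by 1.63 (1.36 to 1.89, limma adjusted p of 8.6e-08). For these 3 genes and for Ntm every ENCC gut lay above every whole gut, as it did in 17.2% of all genes. For Ntm the margin was narrow, with a lowest ENCC gut of -1.1 and a highest whole gut of -1.18. Ntm, which was not called for GDNF, was higher in ENCCs too, with -0.04 ± 0.98 in ENCCs and -1.33 ± 0.07 in whole gut, a difference of 1.29 (0.66 to 1.91, limma adjusted p of 0.00162). Most ENCC arrays of batch 2 read the RNAs on which the scores appear to be centred, so ENCC means near 0 follow from the scores. Averaging the wells of a gut also takes out a GDNF difference from the spread. The p-values of Lsamp and Negr1 are therefore not to be ranked against that of Ntm. Limma takes 1 spread for both groups, while whole guts varied far less than ENCCs, so its intervals can be too narrow. An exact two-sided permutation test was added, which also assumes a like spread in both groups. Lsamp, Negr1 and Ntm each gave p = 0.00202 in it, the smallest that 4 against 8 samples allow. That value is reached when the groups do not overlap.

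Of all genes, 25.9% were called higher and 28.2% lower in ENCCs, and Lsamp, Negr1 and Ntm were. The median difference of the 4 IgLON genes was 1.62, against 0.01 over all genes. At the level of probe sets 24.7% were called higher, and the 6 probe sets of Lsamp, Negr1 and Ntm were. Iglon5 was higher in ENCCs as well, by 0.63 (limma adjusted p of 0.00251), though its probe set 1458997_at alone was not called (limma adjusted p of 0.102). A lower score of a neural gene in whole gut may hold fewer cells of a type or less RNA per cell, and these cannot be told apart in bulk samples.

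Both kinds of well were also set against whole gut, and these comparisons share the whole guts with each other and the wells with the GDNF contrast. GDNF-treated wells minus whole gut gave 2.86 for Opcml, 2.66 for Lsamp, 2.69 for Negr1 and 1.44 for Ntm. Untreated wells minus whole gut gave 0.69 for Opcml. They gave 0.55 for Lsamp (95% interval 0.12 to 0.98), 0.56 for Negr1 (0.23 to 0.89) and 1.14 for Ntm (0.24 to 2.04). Limma took 1 spread for both groups, so these intervals can be too narrow and the p-values too small. The SD in untreated wells was 0.60 for Opcml, 0.53 for Lsamp, 0.27 for Negr1 and 1.42 for Ntm, against 0.02 to 0.08 in whole gut. The untreated wells are part of the values for which Opcml was chosen, so its difference is given with no test. In untreated wells the limma adjusted p was 0.0385 for Lsamp, 0.00902 for Negr1 and 0.0416 for Ntm, where 19.8% of all genes were called higher. The untreated call of Negr1 held when any 1 ENCC gut was left out, while those of Lsamp and Ntm were lost without single guts. Without gut 8 the Opcml difference was 0.59. Without gut 2 the Lsamp difference was 0.55 as before and no longer called (0.0528), and without gut 3 it was 0.30 and still called (0.0303). The Opcml difference without gut 3, whose untreated array in batch 2 was held in doubt, was 0.46. For Ntm it was 0.79 without gut 8 and 0.67 without gut 9, neither called, and the exact permutation p over all guts was 0.0747.

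**Figure D4:**
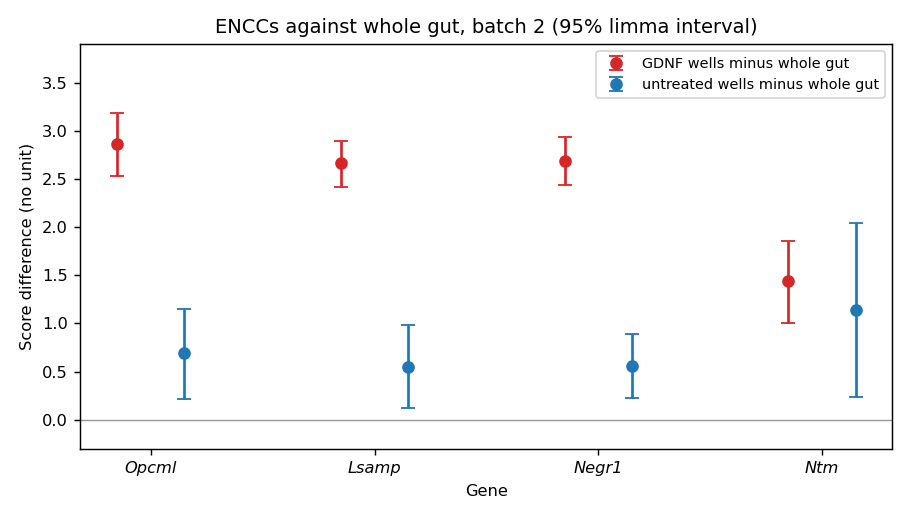
Score difference from whole gut in batch 2 (no unit) for GDNF-treated wells (red, 4 guts) and untreated wells (blue, 4 guts) against 8 whole guts; points are means and bars the 95% limma interval. GDNF-treated wells lie 2.66 to 2.86 above whole gut for Opcml, Lsamp and Negr1, and untreated wells 0.55 to 0.69. For Ntm the values are 1.44 and 1.14. The bars of Opcml are no test, since Opcml was chosen by values of these wells.

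Other immunoglobulin-superfamily adhesion genes of neurons moved in part with the family. Of 24 measured besides Iglon5, 11 rose with GDNF and 1 fell, with a median difference of 0.53. Of all genes, 18.3% were called higher and 13.2% lower. Cntn5 and Cntn3, GPI-anchored contactins, rose by 1.67 ± 0.35 and 1.46 ± 0.44 (SD, n = 9 guts, limma adjusted p of 7.0e-05 and 0.000184). Sdk1, a sidekick adhesion protein known from retinal synapses, fell by 1.49 ± 0.97 (limma adjusted p of 0.00200). Chosen after their values were seen, Thy1, Cntn4 and Cntn6, whose proteins carry the same kind of membrane anchor, rose by 1.45, 1.40 and 1.41 (limma adjusted p of 0.000411, 0.00121 and 0.00243). Of the other anchored contactins, chosen likewise, Cntn1 had 0.41 ± 1.08 and Cntn2 -0.04 ± 0.46, and neither was called. Against whole gut, 21 of these 24 adhesion genes were higher in ENCCs and 1 was lower, with a median of 1.05. Of all genes, 25.9% were called higher there and 28.2% lower. Cadm3, a nectin-like adhesion gene of axons, had a difference of 2.44.

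Of 6 genes for reported receptor partners and the sheddase of IgLON proteins, 0 rose with GDNF and 3 fell, with a median of -0.49. Of all genes, 18.3% were called higher with GDNF and 13.2% lower. Epha2, an ephrin receptor, fell by 1.40 ± 1.08 (SD, n = 9 guts, limma adjusted p of 0.00461). Fgfr1, a fibroblast growth factor receptor, fell by 1.15 ± 0.85 (limma adjusted p of 0.00607), and Axl, a receptor tyrosine kinase named after its values were seen, was the other one that fell, by 0.63 (limma adjusted p of 0.0350).

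Neuronal markers moved with Opcml, Lsamp and Negr1. Of 20 measured, 16 rose with GDNF and 0 fell, with a median of 1.61, where 18.3% of all genes rose and 13.2% fell. The mean score of these markers ran from 0.05 to 0.70 in GDNF-treated wells, -1.60 to -0.40 in untreated wells and -1.65 to -1.59 in whole gut. Elavl3, a neuronal regulator of mRNA, rose by 2.04 ± 0.41 and Syn1, a synaptic vesicle protein, by 2.00 ± 0.53 (SD, n = 9 guts). Of 10 gut mesenchyme markers, 0 rose and 5 fell, and their mean score ran from -1.24 to 0.46 in GDNF-treated wells, -0.56 to 1.06 in untreated wells and 1.09 to 1.29 in whole gut. Of 6 measured ribosomal protein genes, 0 rose and 5 fell. They were listed as a sign of RNA quality, but whether they follow it here was not tested. Their mean score ran from -1.18 to 0.36 in GDNF-treated wells, 0.39 to 1.24 in untreated wells and 0.92 to 1.06 in whole gut. The part of these lists in the IgLON differences was not tested.

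The remaining marker lists are set beside all genes, of which 18.3% were called higher with GDNF and 13.2% lower. Of 8 progenitor and glia markers 2 rose and 1 fell, and of 6 endothelium markers 1 rose. Fabp7 rose by 1.60 ± 0.39 and Gfap by 1.13 ± 0.81 (SD, n = 9 guts, limma adjusted p of 8.9e-05 and 0.00547). Both were above 0 in 9 of 9 guts. Cdh19 fell by 0.91 ± 0.64 (limma adjusted p of 0.00989). None of 9 epithelium, 6 smooth muscle and 6 macrophage markers was called in either direction by limma, with 0, 1 and 1 of them at an unadjusted p under 0.05.

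The genes most like each member were found by Pearson's r of the gene score over the 18 ENCC RNAs, as a description. These RNAs form treated and untreated groups, so r over all 18 holds the GDNF difference, and the r within each group is given for some of them. For Opcml the nearest were Jph4, Lrrtm4, St8sia3, Cntnap5a and Rnf208, with r of 0.947 to 0.955. Lrrtm4 encodes a leucine-rich synaptic adhesion protein, and its r with Opcml was 0.46 within treated and 0.75 within untreated wells. For Lsamp they were Dzank1, Slc18a2, Stau2, Car8 and Dpp10, with r of 0.979 to 0.988. Slc18a2 encodes a vesicular monoamine transporter, and its r with Lsamp was 0.75 within treated and 0.79 within untreated wells. For Negr1 they were Dzank1, Bmerb1, Gstm6, Dpp10 and Slc18a2, with r of 0.971 to 0.977, so that Dzank1, Slc18a2 and Dpp10 stood in both lists. Within groups the likeness to Negr1 was much weaker: the r of Slc18a2 was 0.80 within treated and 0.03 within untreated wells, that of Gstm6 0.04 and 0.63, that of Bmerb1 0.44 and 0.16, and that of Dpp10 0.54 and 0.29. Dzank1 had 0.67 and 0.55.

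For Ntm the nearest genes were other ones: Syndig1, Ogdh, Zbtb40, Clec14a and Sec23b, with r of 0.775 to 0.810. Syndig1 encodes a synaptic membrane protein, and its r with Ntm was 0.91 within treated and 0.84 within untreated wells. Ogdh encodes an enzyme of the citric acid cycle, with r of 0.92 within treated and 0.80 within untreated wells. None of these 5 genes was among the nearest of Opcml, Lsamp or Negr1.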

How the data were processed

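RNA of ENCCs and whole gut was read on 33 Affymetrix arrays with 45101 probe sets. The submitters' processing notes name RMA without a version. The deposited values are not on its log2 scale: they are a score per probe set, equal to the normal quantiles of the ranks of an array within 5e-06. Over the 7 RNAs in both batches the SD over probe sets of the mean score was 0.0585 in batch 1 and 0.117 in batch 2. From this the centring within batches on these 7 RNAs was read. The spread of each probe set over these RNAs was not computed, so the scaling is presumed. No label records either step.

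A gene's score was the mean of its probe sets with 1 symbol. For GDNF, each gut gave 1 difference, treated well minus untreated well, taken inside a batch and averaged over batches where a gut was in both. The labels' protocols say that a gut gave both wells. Limma 3.58.1 (R 4.3.3, statmod 1.5.0) was run on all 18193 genes or 34945 probe sets, without a trend, with Benjamini-Hochberg adjustment and a threshold of 0.05. Whole guts were compared within batch 2. The scripts were tested on simulated data.

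The named genes were the 4 members, Iglon5, at most the 2 largest called differences in each direction of a list, and the 5 most correlated genes per member. Axl, Thy1, Cntn1, Cntn2, Cntn4 and Cntn6 fall outside this rule and were named after their values were seen. The members and lists were chosen with earlier results of these data known. Alternatives were other summaries of probe sets, single batches, fits without the pairing of wells, a robust form of limma, and leaving out each gut. Another left out the batch 2 array of the untreated well of gut 3, which was held in doubt. Without it the GDNF difference was 2.23 for Opcml, 1.83 for Lsamp, 1.82 for Negr1 and 0.17 for Ntm. The main results keep this array. The exact permutation test against whole gut was added after seeing the data. Depth does not apply to arrays, and their number limits the precision.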

Additional observations from a re-analysis of the deposited data

How the results depend on the processing

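The GDNF differences of Opcml, Lsamp and Negr1 kept their direction under every alternative run, and the calls of Lsamp and Negr1 held under each except batch 2 alone, with 4 guts. There 0 genes and 0 probe sets passed limma, with 3516 and 6516 at an unadjusted p under 0.05, and Lsamp had 2.11 and Negr1 2.13 (limma adjusted p of 0.111 each). Leaving out each gut gave 1.77 to 1.90 for Lsamp, 1.78 to 1.89 for Negr1 and 0.02 to 0.33 for Ntm. Ntm turned to just under 0 (0.00) in batch 1 alone. The Negr1 minus Lsamp difference lay at 0.00 and changed sign between -0.04 and 0.05 when guts were left out. Without the replicate block of wells of 1 gut, Lsamp and Negr1 had 1.85 each and Ntm 0.17, and no call of a member changed. Every member stayed higher in ENCCs than in whole gut, with both wells averaged or with GDNF-treated wells. In untreated wells, Ntm had 1.10 with the median of its probe sets (limma adjusted p of 0.0599) and 1.14 with the exact permutation test (p = 0.0747). Leaving out 1 ENCC gut gave 0.46 to 0.93 for Opcml, 0.67 to 1.62 for Ntm and 0.30 to 0.70 for Lsamp there. The highest limma adjusted p-values were 0.166 for Ntm (without gut 9) and 0.0528 for Lsamp (without gut 2), not always where the difference was smallest. The cause was not tested. Brightness is not kept in the scores, so a filter on dim probe sets was not possible.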

Other observations

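The genes for IgLON partners and the sheddase had no common direction between ENCCs and whole gut. In batch 2, with both wells averaged, Fgfr1 was higher in ENCCs than in whole gut by 1.27, while Fgfr2 and Erbb2, receptors known from epithelia, had differences of -2.15 and -1.75, all called by limma. Of the 6 genes, 1 was higher and 2 were lower, where 25.9% of all genes were higher and 28.2% lower. Such counts say little about these genes as a set. Axl had a difference of 0.50 and was not called. Sdk1, which fell with GDNF, was the 1 adhesion gene of 24 besides Iglon5 that was lower in ENCCs than in whole gut, with a difference of -0.87.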
